A study of Mus musculus with 35 samples.

Results

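This account follows 37 genes of the interferon response and of class I antigen presentation through 35 RNA-seq libraries of mouse colon tumour organoids. The members were chosen by name, and all 37 were found among the 54354 genes of the deposited table. They comprise 24 interferon members, which are transcription factors and interferon-stimulated genes, and 13 antigen presentation members, which are class I chains, peptide transporters and proteasome parts.

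The organoids are epithelial cultures of colon tumour, and every library carries the genotype label AKP, which the labels do not spell out. Cultures received the saturated fatty acid palmitic acid, or carmofur, which the study describes as inhibiting ceramidase, to ask how fatty acid and ceramide levels alter transcription. Of the 8 palmitic acid libraries, 3 are controls, 3 belong to treated batch 1 and 2 to treated batch 2. The labels place the controls in neither batch, so batch and treatment cannot be told apart there. The carmofur experiment comprised 12 controls and 15 treated libraries. Their library numbers form 9 sets of 3 consecutive numbers with 1 treatment each, called library sets here. The labels do not say whether the libraries of a set come from separate cultures. The main fit treats them as independent, and values with the libraries of each set summed are given beside it. Labels give no dose, time or number of organoid lines or separate cultures, and p-values here cover only the spread among the libraries, part of which may be technical.

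Cells that bind interferon activate STAT proteins and interferon regulatory factors, which enter the nucleus and raise many interferon-stimulated genes. Some of these block viral replication, some feed back on the pathway, and others raise the machinery that shows peptides to CD8+ T cells. In that machinery the proteasome cuts proteins into peptides, the TAP transporter carries them into the endoplasmic reticulum, and tapasin loads them on a class I heavy chain paired with beta-2 microglobulin. Interferon also exchanges the catalytic subunits of the standard proteasome for the immunoproteasome subunits encoded by Psmb8, Psmb9 and Psmb10. Tumour epithelium can carry part of this programme without any immune cell present.

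Total counts per library ran from 762888 to 3742289 in the palmitic acid experiment and from 1663750 to 10609563 in the carmofur experiment, where the treated libraries tended to be deeper. All 8 epithelial markers on the list had counts, with summed levels of 1130 to 2600 CPM (counts scaled to a library of 1e+06). Of 15 immune markers, 9 were at 0 in all 35 libraries, including Cd3e, Adgre1 and Csf1r, and 12 never exceeded 3 counts. Nearly all of the immune signal was Cd68, a lysosomal protein gene, whose change with carmofur was 0.20 ± 0.38 (log2, SE). Of 8 fibroblast markers, 5 were at 0 throughout, Col1a1 and Col1a2 among them, and Dcn and Pdgfra reached 6.56 and 4.29 CPM, each above 3 counts in 1 library. Of 5 endothelial markers, Cdh5 and Kdr were at 0 throughout, Tek and Emcn exceeded 3 counts in 1 library each, and Pecam1 exceeded 3 counts in all 35, at up to 21.6 CPM, with a carmofur change of -0.02 ± 0.28 (log2, SE). The keratin gene Krt20, a marker of differentiated colonocytes, rose with carmofur by 2.82 ± 0.51 on the log2 scale (edgeR adjusted p = 0.000101). That rise differed between the 3 blocks of library numbers (adjusted p = 0.0365). Krt20 was at 0 counts in 4 libraries and exceeded 3 counts in 27 of 35. Of the 8 epithelial markers only Krt20 was called, and their median log2 change was 0.165, with 6 positive and 2 negative. Whether cell state changed, and its part in the results below, was not tested. In these bulk libraries, fewer cells of a type and less RNA per cell cannot be told apart.

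The promoters of the 3 members that rose with carmofur are shown because they differ in the sequence elements that interferon-activated factors are known to bind. In lower case, with matches in capitals, they are the 250 bases before the annotated start (RefSeq, GRCm38.p6, plus strand), at chr11:72301379-72301628 for Xaf1, chr2:122147437-122147686 for B2m and chr7:78913174-78913423 for Isg20.
Xaf1: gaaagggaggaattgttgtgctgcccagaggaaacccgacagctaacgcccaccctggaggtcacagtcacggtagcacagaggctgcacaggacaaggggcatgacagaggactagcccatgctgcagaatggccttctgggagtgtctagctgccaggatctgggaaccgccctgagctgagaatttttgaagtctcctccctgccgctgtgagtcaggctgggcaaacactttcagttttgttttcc
B2m: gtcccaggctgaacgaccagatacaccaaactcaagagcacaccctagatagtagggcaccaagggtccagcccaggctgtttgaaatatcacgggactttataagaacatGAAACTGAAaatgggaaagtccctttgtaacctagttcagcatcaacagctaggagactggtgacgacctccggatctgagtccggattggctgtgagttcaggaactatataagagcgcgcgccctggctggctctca
Isg20: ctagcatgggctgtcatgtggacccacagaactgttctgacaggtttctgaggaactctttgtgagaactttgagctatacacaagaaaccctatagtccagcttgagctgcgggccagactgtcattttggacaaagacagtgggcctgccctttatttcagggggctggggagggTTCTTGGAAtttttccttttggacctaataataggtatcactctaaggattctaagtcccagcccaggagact

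The capitals in B2m mark a match to GAAANNGAA, the core of the interferon-stimulated response element, at position -139 from the start. Those in Isg20 mark TTCNNNGAA, the core of the gamma-activated site that STAT dimers bind, at position -73. Both cores were searched on both strands of windows of 300 bases that also hold the bases just after the start. The Xaf1 window held neither, nor did the other 2 windows of Isg20, which says only that these letters are not there.

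Of the 37 members, 31 had a RefSeq window, 38 windows in all. The response element core was in 36.0% of the 25 interferon windows and 23.1% of the 13 antigen presentation windows, beside 8.56% of all 32851 windows. The gamma-activated core was in 24%, 7.69% and 8.3% of them. The 2 cores can overlap in sequence, as in Bst2, where a TTCNNNGAA match ends among GAAANNGAA matches. Isg15 and Ifit3 each held 3 response element cores. Isg15 never exceeded 2.43 CPM and Ifit3 exceeded 3 counts in 4 of 35 libraries. A match is a description and not a site of binding.

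The members spanned the whole range from abundant to absent. Levels between genes are compared as CPM per kb of exon, with medians over the 35 libraries. Psme2, a subunit of the PA28 proteasome activator, had the highest median at 178 CPM per kb, followed by B2m (beta-2 microglobulin) at 144, the class I heavy chains H2-D1 at 45.2 and H2-K1 at 33.7, and Ifi35 at 32.6. Xaf1, a pro-apoptotic partner of XIAP, stood at 25.7, close to Psmb10 (25.1) and Psme1 (24.8), and Isg20, an exonuclease that degrades viral RNA, at 15.6. Neighbours in this order overlapped widely over libraries.

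**Figure D1:**
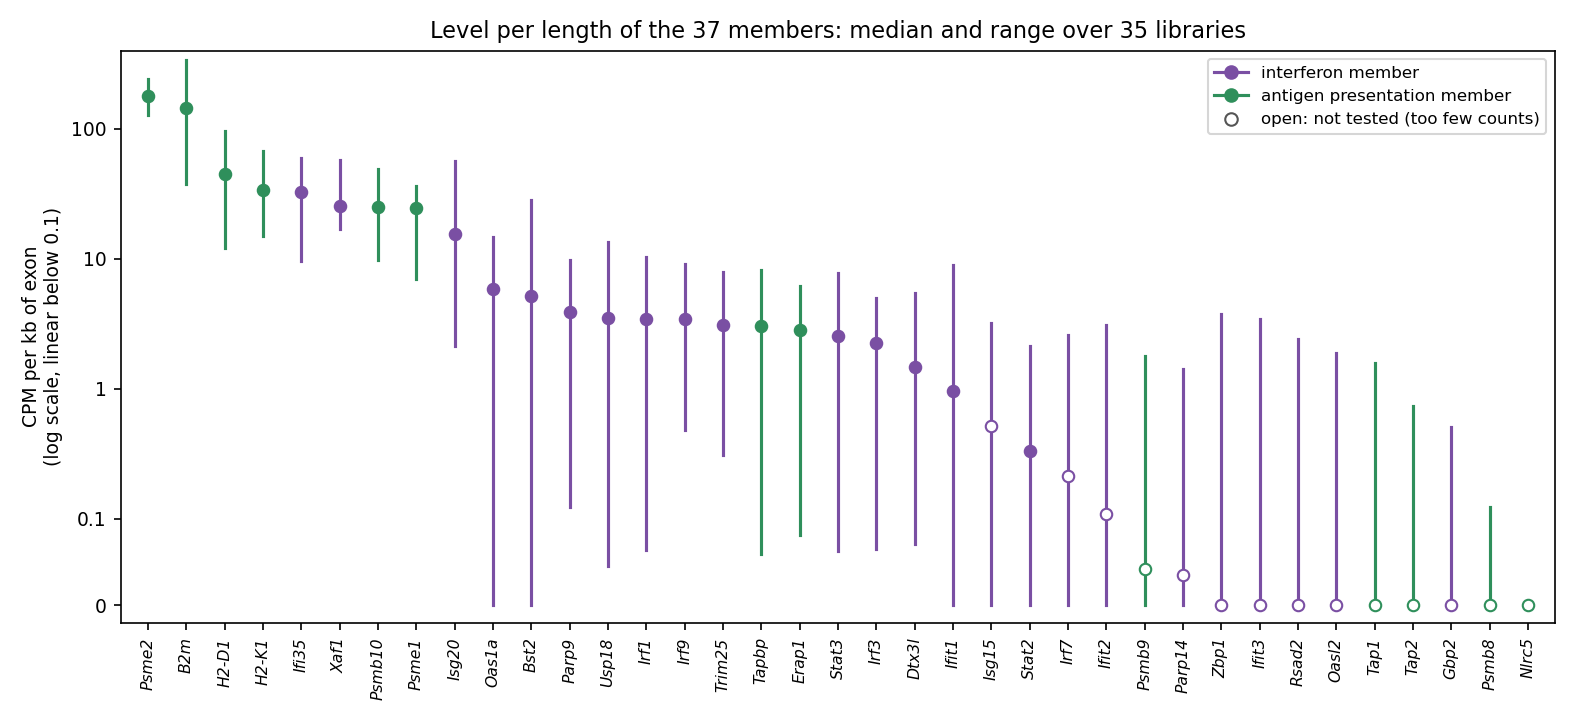
Level of each of the 37 members as CPM per kb of exon on a log axis that is linear below 0.1, with the median (point) and the lowest and highest of 35 libraries (line). Psme2 and B2m lead at medians of 178 and 144, and the open points at the right are the 14 members with too few counts to be tested.

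Low counts kept 14 members out of the tests in both experiments: 9 interferon members (Isg15, Ifit2, Ifit3, Irf7, Oasl2, Rsad2, Zbp1, Gbp2 and Parp14) and 5 antigen presentation members (Psmb8, Psmb9, Tap1, Tap2 and Nlrc5). Nlrc5, the class I transactivator, had 0 counts in all 35 libraries, which allows a level of up to 0.0169 CPM in the pooled total. Psmb8 summed to 3 counts over all libraries. Tap1 exceeded 3 counts in 4 libraries and Tap2 in 2. Psmb9, Tap1, Psmb8 and Tap2 lie side by side within 34.3 kb of the major histocompatibility region (mm10, chr17:34181987-34216321), with the starts of Psmb9 and Tap1 211 bp apart on opposite strands. Their overlapping gene bodies make counts of that pair less certain. The neighbouring members Tapbp, H2-K1 and H2-D1 on the same chromosome were tested.

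The presentation machinery was therefore uneven, with the chains, the activator and the inducible subunit Psmb10 present, and the transporter genes, Psmb8 and Psmb9 near 0. Interferon genes themselves were hardly seen: 17 of the 19 ligand genes on the list were at 0 in all libraries and 18 never exceeded 3 counts. Among class II genes, 5 of 10 were at 0 throughout, and the class II transactivator Ciita summed to 3 counts.

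With carmofur, 3 members rose and none fell: Xaf1, Isg20 and B2m. A gene is called here at an edgeR quasi-likelihood adjusted p under 0.05, and this rule called 901 of the 9992 genes tested, or 9.02%, with 5.21% higher and 3.8% lower. Of the 15 tested interferon members 2 were called, and of the 8 tested antigen presentation members 1. Counts this small do not set either list apart from the background.

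Xaf1 (chr11:72301629-72313733, mm10) lay between 80.2 and 120.0 CPM in the 12 carmofur controls, with a median of 101. In the 15 carmofur libraries it lay between 113 and 269 CPM, with a median of 173. Only the lowest treated library fell within the control range, and 14 of 15 were above every control. The log2 fold change was 0.81 ± 0.12 (SE), 1.75-fold, with an adjusted p of 8.1e-06 in the edgeR fit.

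B2m (chr2:122147686-122153083) ranged from 32.3 to 160 CPM in controls, with a median of 87.0, and from 90.6 to 293 CPM with carmofur, with a median of 149. All 15 treated libraries were above the control median, while 6 were above every control, so the groups overlapped. Its log2 fold change was 0.75 ± 0.18 (edgeR adjusted p = 0.00462). B2m overlaps Patl2 on the opposite strand, and no source used here says whether counting used strand. Without library set 6 (carmofur 10 to 12, at 249 to 293 CPM) it was 0.52 and no longer called (adjusted p = 0.0568). With the libraries of each set summed it was 0.77, adjusted p = 0.151.

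Isg20 (chr7:78913424-78920396) spread most of these 3 genes. Controls ran from 3.97 to 48.1 CPM with a median of 23.6, and treated libraries from 19.99 to 105 CPM with a median of 52.8. Of the treated libraries 14 were above the control median and 9 above every control. The log2 fold change was 1.03 ± 0.29 (edgeR adjusted p = 0.0169). The call was lost without library set 6, 7 or 8 (adjusted p = 0.0751, 0.105 and 0.0518) and with sets summed (0.115).

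**Figure D2:**
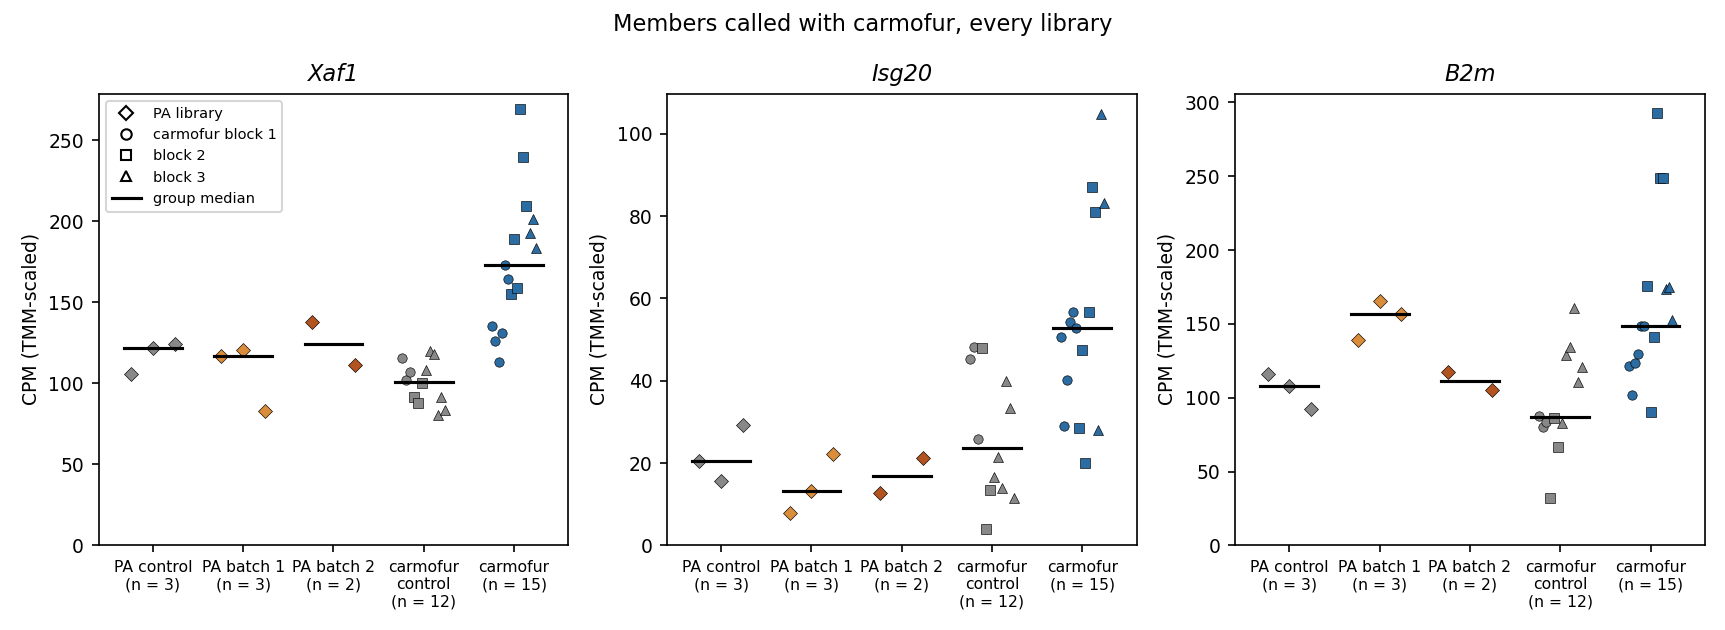
CPM of Xaf1, Isg20 and B2m in every library by group, on axes from 0, with marker shapes for the blocks of carmofur library numbers and a bar at each group's median. With carmofur, Xaf1 exceeded every control in 14 of 15 libraries, and Isg20 and B2m overlapped more with their controls.

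The remaining effectors and modifiers of the interferon list did not pass the test. Oas1a, which makes the oligoadenylates that activate RNase L, had medians of 6.78 CPM in controls and 14.7 with carmofur (log2 0.92 ± 0.57, edgeR adjusted p = 0.427). Usp18, the protease that removes ISG15 and damps receptor signalling, had 8.69 and 12.8 CPM (0.89 ± 0.56, adjusted p = 0.436). Ifi35 ranged from 16.7 to 86.1 CPM in controls and 36.1 to 103 with carmofur (0.36 ± 0.20, adjusted p = 0.354), and 13 of 15 treated libraries were above the control median.

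Trim25, the ubiquitin ligase that activates the RNA sensor RIG-I, was at 0.57 ± 0.34 on the log2 scale, adjusted p = 0.389. Bst2, or tetherin, was at 0.40 ± 0.65. The Parp9 and Dtx3l genes, which encode partners in a ubiquitin ligase complex, were at -0.05 ± 0.34 and 0.10 ± 0.52. Ifit1, which binds viral RNA ends, was at 0 in 6 of 12 controls and 3 of 15 treated libraries (0.41 ± 0.94). The 95% intervals of Trim25, Bst2, Dtx3l and Ifit1 included the 0.81 of Xaf1, and that of Parp9 ended at 0.63.

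No transcription factor among the members was called. Irf1, which drives Psmb9, Tap1 and class I genes, had medians of 7.20 CPM in controls (0.255 to 41.1) and 14.6 with carmofur (7.27 to 39.3). All 15 treated libraries were above the control median, and the highest control was above all of them. Its log2 fold change was 0.62 ± 0.49 (adjusted p = 0.582), with a 95% interval of -0.38 to 1.61. Irf9, which binds DNA with the STAT proteins, was at -0.09 ± 0.32, Stat2 at -0.56 ± 0.85, Stat3 at -0.04 ± 0.44 and Irf3 at -0.35 ± 0.58.

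Among the class I chains, H2-D1 and H2-K1 gave different values. H2-D1 ranged from 31.6 to 166 CPM in controls (median 113) and from 96.3 to 248 with carmofur (median 144), with a log2 fold change of 0.40 ± 0.16 that missed the threshold (edgeR adjusted p = 0.14). H2-K1 ranged from 63.3 to 173 CPM in controls (median 118) and from 43.7 to 199 with carmofur (median 105), a log2 fold change of 0.02 ± 0.18. Class I heavy chain genes are related in sequence, so the split of reads between them may be uncertain. That was not measured, and it applies to H2-T23 below as well. The difference between the 2 effects was not tested.

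Tapbp, or tapasin, had medians of 5.45 CPM in controls and 15.1 with carmofur and was above the control median in 14 of 15 libraries. Its log2 change was 0.98 ± 0.52 (adjusted p = 0.318). Erap1, which trims peptides in the endoplasmic reticulum, was at -0.50 ± 0.40.

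Of the proteasome parts, Psme2 ranged from 225 to 416 CPM in controls and from 268 to 427 with carmofur. Its log2 fold change was 0.04 ± 0.09, with a 95% interval of -0.15 to 0.22. Its partner Psme1 ranged from 15.6 to 80.7 CPM in controls and 41.0 to 75.9 with carmofur (0.30 ± 0.18, adjusted p = 0.389). Psmb10 ranged from 16.7 to 84.5 CPM in controls and 27.7 to 80.8 with carmofur (0.37 ± 0.23, adjusted p = 0.435).

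Ratios of each inducible subunit to the standard subunit it replaces, taken per kb within a library, do not depend on scaling. Psmb10 relative to Psmb7 had a median of 25.1% in controls (9.67% to 58.0%) and 51.0% with carmofur (19.7% to 71.7%), ranges that overlapped. Psmb9 relative to Psmb6 did not exceed 0.345% and Psmb8 relative to Psmb5 did not exceed 0.13% in any library of either experiment. The 2 subunits encoded in the chromosome 17 cluster were thus near 0 beside their standard partners.

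**Figure D3:**
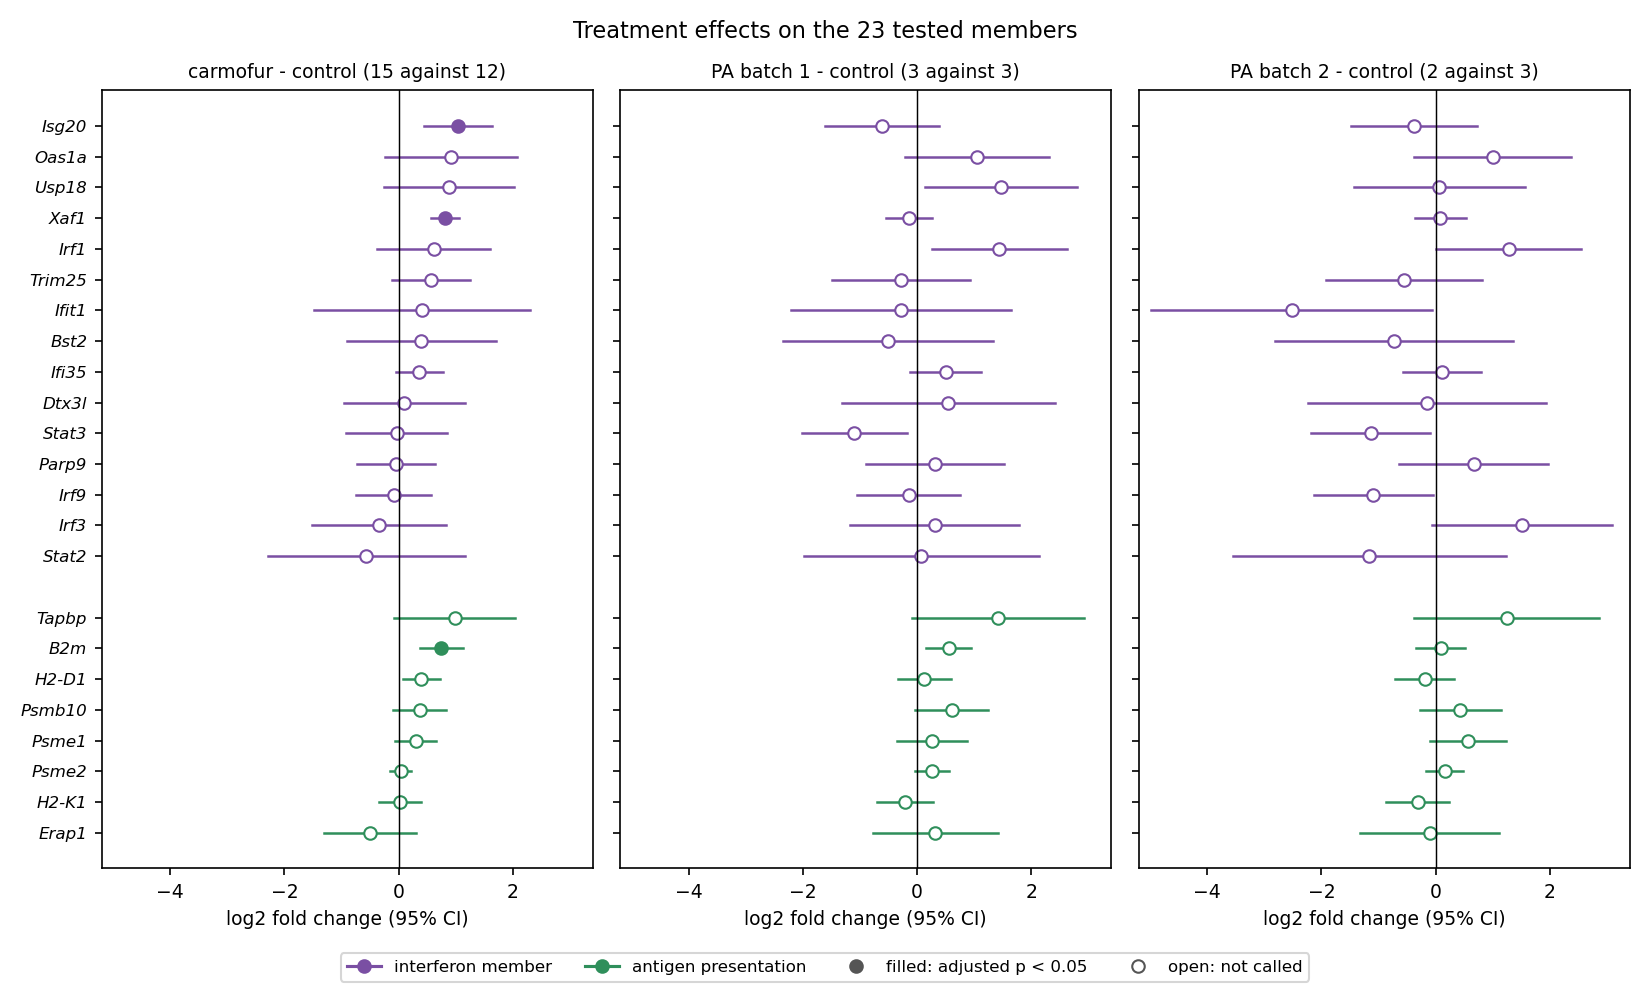
Log2 fold changes with 95% confidence intervals for the 23 tested members, by comparison with each treatment's own control, filled where the edgeR adjusted p is under 0.05. Xaf1, Isg20 and B2m are filled under carmofur, and no member is filled for either palmitic acid batch, which share their controls.

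Compared as lists, the interferon and antigen presentation members had similar medians under carmofur. The median log2 fold change was 0.40 over the 15 tested interferon members, of which 10 were positive, and 0.33 over the 8 antigen presentation members, of which 7 were positive. Over all 9992 genes the median was 0.0017, and 50.2% were positive. The lists were chosen with earlier results known, so no p is given for them.

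Mean levels per library show the same comparison with its spread. The mean log2(CPM + 1) of the interferon members had a median of 3.43 in carmofur controls (2.4 to 4.21) and 4.07 with carmofur (3.6 to 4.44). For the antigen presentation members it was 5.73 (5.09 to 6.16) and 6.24 (5.78 to 6.56). In both lists every treated library was above the control median, and the groups overlapped.

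**Figure D4:**
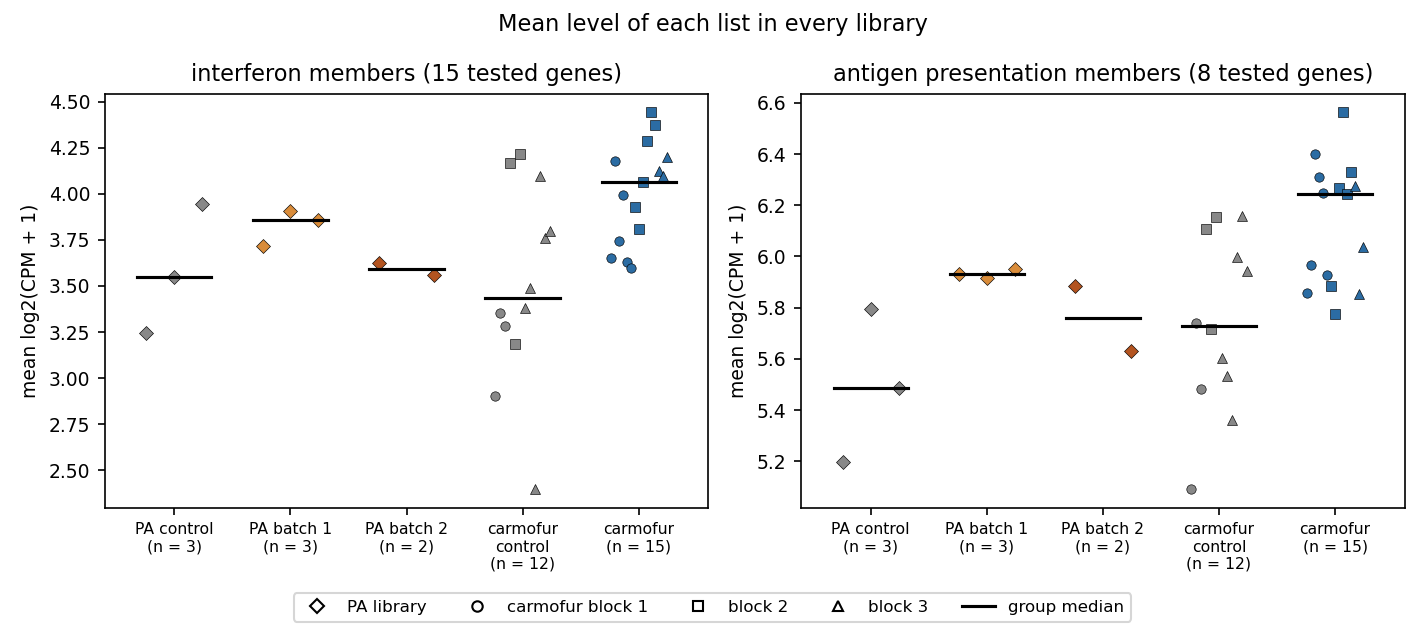
Mean log2(CPM + 1) of the 15 tested interferon members and the 8 tested antigen presentation members in every library, with group medians as bars; the axes do not start at 0. Treated carmofur libraries center on 4.07 and 6.24 beside control medians of 3.43 and 5.73, with overlap in both panels.

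Among the members left out by the filter on low counts, Zbp1, Oasl2 and Psmb9 were present in some carmofur libraries and nearly absent from controls. Others were not so: Ifit2 exceeded 3 counts in 6 of 12 controls and 6 of 15 treated libraries, and Rsad2 in 3 and 4. Mean levels of Irf7 were 1.79 CPM in controls and 1.65 with carmofur, and those of Ifit3 0.53 and 0.44. The share of all low genes with an uneven pattern of this kind was not counted. Zbp1, the sensor of Z-form nucleic acid that can trigger necroptosis, summed to 205 counts in the carmofur libraries and 1 count in the controls. It exceeded 3 counts in 6 of 15 treated libraries and in none of 12 controls, with 13.4 CPM at most. Oasl2 summed to 223 and 2 counts and exceeded 3 counts in 5 treated libraries and no control. Psmb9 summed to 143 and 5 counts and exceeded 3 counts in 4 treated libraries and no control.

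These genes were either near 0 or well above it: in the 7 libraries where Zbp1 had counts with carmofur, 1 library had 1 count and the others 21 to 50. Only carmofur 10 exceeded 3 counts of all 3 genes. Without the filter, edgeR called Zbp1 (adjusted p = 0.00536), Oasl2 (0.0136) and Psmb9 (0.0442), and DESeq2 called the same 3 (0.00686, 0.0114 and 0.0418). Those fits called 3541 and 1374 of 24076 genes, beside 901 of 9992 in the main fit. In both fits 4 of 23 interferon and 2 of 12 antigen presentation members were called. The 3 genes were picked by the same counts that these fits test, so the calls restate the pattern and add no support. The share called among all genes that the filter leaves out was not counted. Isg15, the ubiquitin-like modifier, exceeded 3 counts in 9 treated libraries and 1 control but was called in neither. The treated libraries were deeper, and the part of depth in these low counts was not tested.

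The carmofur library numbers fall into 3 blocks of 12 numbers, which the labels do not call batches. Within blocks 1, 2 and 3 the rule called 1.76%, 8.14% and 6.06% of all genes. Xaf1 was at 0.38 ± 0.19, 1.13 ± 0.20 and 0.94 ± 0.18 on the log2 scale, with adjusted p of 0.474, 0.000143 and 0.000579 in the edgeR fit. B2m was at 0.62 ± 0.28, 1.69 ± 0.29 and 0.44 ± 0.26, and only block 2 passed (0.000111). Isg20 was at 0.25 ± 0.52, 1.3 ± 0.55 and 1.65 ± 0.49, and only block 3 passed (0.0377).

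Several of the more abundant presentation genes had both signs across blocks. H2-K1 was at -0.17 ± 0.28, 0.59 ± 0.29 and -0.80 ± 0.29, and Psmb10 at 0.92 ± 0.36, -0.69 ± 0.33 and 0.95 ± 0.33. Psme2 was at -0.32 ± 0.14, 0.07 ± 0.14 and 0.27 ± 0.14, and Psme1 at -0.03 ± 0.29, 0.05 ± 0.29 and 0.55 ± 0.28. H2-D1 passed in block 1 (0.98 ± 0.26, adjusted p = 0.0404) and was at 0.03 ± 0.25 in block 3. The test of a difference between blocks called 1.78% of all genes and no member, with adjusted p of 0.067 for Psmb10, 0.146 for B2m, 0.169 for H2-K1, 0.266 for Psme2 and 0.295 for Xaf1. Without library set 4, the controls of block 2, Psmb10 was called with a log2 fold change of 0.86 (adjusted p = 0.00828).

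**Figure D5:**
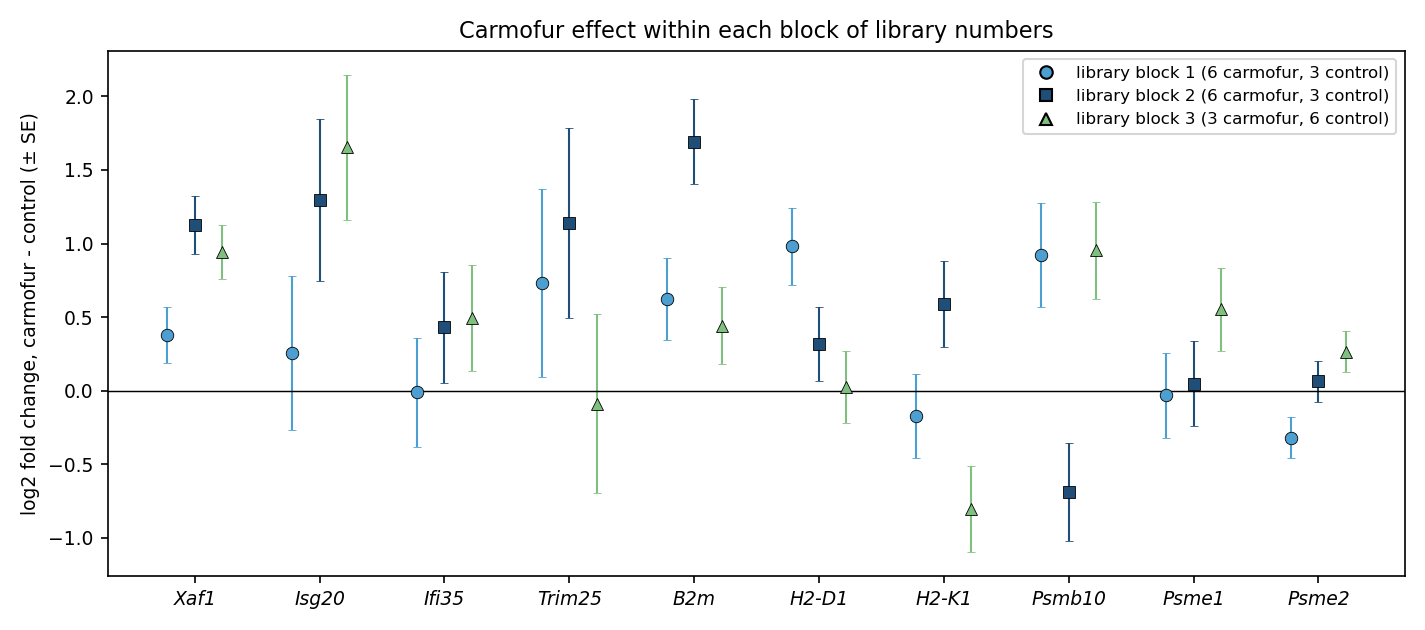
Carmofur log2 fold change with SE of 10 members within each block of library numbers. Xaf1, Isg20 and B2m are above 0 in all 3 blocks, whereas Psmb10 and H2-K1 lie on both sides of 0.

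Listed genes outside the members give the carmofur values of the pathway around them, to be read beside the 9.02% of all genes called. The counts are too small to set any of these lists apart. Among receptors, kinases and feedback genes, 13 of 15 were tested and 1 was called. Jak1, the kinase of all interferon receptors, fell by 1.25 ± 0.41 on the log2 scale (edgeR adjusted p = 0.0452), a call kept in only 9 of 20 alternatives. Of 15 nucleic acid sensors and adaptors in the table, 14 were tested and none was called, with 1 at an unadjusted p under 0.05, Tbk1 (0.68 ± 0.32, adjusted p = 0.217).

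Of 78 further interferon-stimulated genes 30 were tested, 2 were higher and 1 lower. Slfn5, of the schlafen family, rose from a median of 237 to 426 CPM (0.79 ± 0.13, adjusted p = 3.77e-05). Ube2l6, the conjugating enzyme for ISG15, rose by 1.52 ± 0.46 (adjusted p = 0.0248), and Nampt, an enzyme of NAD synthesis, fell by 0.55 ± 0.15 (adjusted p = 0.0109). With the libraries of each set summed, Slfn5 (adjusted p = 0.0542) and Nampt (0.136) lost their calls. Nampt also lost it with the replicate block (0.0647) and without library set 1 (0.0708). Ube2l6 lost it with the replicate block (0.0935), with library set as a correlated group (0.0826) and without any of several sets. Samd9l, at 0.62 ± 0.21, missed the threshold (adjusted p = 0.0639).

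Among the further class I genes, Tapbpl and H2-T23 rose in nearly all treated libraries. Tapbpl, or TAPBPR, an editor of class I peptides, ranged from 86.0 to 156 CPM in controls and from 173 to 347 with carmofur, so every treated library was above every control. Its log2 fold change was 1.18 ± 0.12 (edgeR adjusted p = 3.85e-09). H2-T23, the non-classical chain Qa-1 that NK cell receptors read, ranged from 139 to 290.0 CPM in controls and 271 to 531 with carmofur (0.83 ± 0.11, adjusted p = 1.28e-06), with 12 of 15 treated libraries above every control. Rfxank, a subunit of the RFX complex on class I and II promoters, fell by 1.48 ± 0.43 (adjusted p = 0.0217), a call lost without library set 4, 6 or 7 (0.0561, 0.0507 and 0.0962) and with sets summed (0.0626). In all, 3 of 13 tested genes were called, 2 higher and 1 lower, and 8 of the 13 had negative values.

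All 14 genes of the standard 20S proteasome were tested, and 12 had negative values. Psma2 fell by 0.37 ± 0.07 (adjusted p = 2.16e-04) and Psma3 by 0.34 ± 0.07 (adjusted p = 8.4e-04). With sets summed both calls were lost (adjusted p = 0.0726 and 0.141). The standard catalytic subunits Psmb5, Psmb6 and Psmb7 were at 0.26 ± 0.20, -0.12 ± 0.07 and -0.24 ± 0.09, none called. The value of Psmb6 differed between the blocks of library numbers (adjusted p = 0.0239), at -0.07 ± 0.09, -0.39 ± 0.09 and 0.22 ± 0.09.

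Palmitic acid gave no called member in either batch, against a background of 55 of 9845 genes (0.559%) for batch 1 and 32 (0.325%) for batch 2. In simulated data these comparisons found 22% and 24% of 2-fold changes, so a missed call does not show that a member was unchanged. At an unadjusted p under 0.05 there were 3 interferon and 1 antigen presentation member for batch 1, and 4 interferon members for batch 2. DESeq2 and limma-voom also called 0 members in both batches. The median log2 fold changes were 0.07 for interferon and 0.29 for antigen presentation members in batch 1, and -0.15 and 0.12 in batch 2, beside 0.014 and -0.010 for all genes.

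B2m was at 116, 108 and 92.2 CPM in the 3 controls, 139, 165 and 157 in batch 1 and 117 and 105 in batch 2. Batch 1 did not overlap the controls and batch 2 did, with log2 fold changes of 0.55 ± 0.20 (adjusted p = 0.316) and 0.09 ± 0.22 (0.997). How many of all genes separate in groups this small was not counted, so a lack of overlap has no background here. The direct difference of the batches was -0.47 ± 0.22, unadjusted p = 0.0347 and adjusted p = 1 in the edgeR fit, where 0.102% of all genes were called.

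Irf1 was at 6.44, 9.40 and 4.499 CPM in controls, 11.6, 20.9 and 23.6 in batch 1 and 21.1 and 12.1 in batch 2. Treated and control libraries did not overlap in either batch, again without the share of all genes that separate. Its log2 fold changes were 1.44 ± 0.60 (adjusted p = 0.485) and 1.28 ± 0.64 (0.7). Usp18 was at 1.29, 4.70 and 12.1 CPM in controls and 19.4, 13.4 and 21.6 in batch 1, but 8.94 and 4.58 in batch 2. Stat3 was at 34.8, 24.3 and 38.2 CPM in controls, 27.1, 7.08 and 11.1 in batch 1 and 15.4 and 13.7 in batch 2. With the counts behind them, 5 to 85 per library for Irf1 and Stat3, none of these differences passed the threshold.

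Xaf1 and Isg20, called with carmofur, overlapped their controls in both palmitic acid batches. Xaf1 was at 106, 122 and 124 CPM in controls, 117, 120.3 and 82.7 in batch 1 and 138 and 111 in batch 2, with log2 fold changes of -0.14 ± 0.20 and 0.08 ± 0.23. Isg20 was at 20.6, 15.7 and 29.2 CPM in controls, 7.76, 13.1 and 22.1 in batch 1 and 12.7 and 21.2 in batch 2, with -0.62 ± 0.50 and -0.37 ± 0.55.

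Among the more abundant presentation genes, Psme2 was at 276, 321 and 302 CPM in controls, 330, 371 and 380 in batch 1 and 356 and 314 in batch 2. H2-D1 was at 55.4, 101 and 111 CPM in controls, 117, 77.9 and 103 in batch 1 and 91.5 and 67.4 in batch 2. H2-K1 was at 70.9, 96.7 and 85.9 CPM in controls, 51.7, 104 and 63.9 in batch 1 and 72.6 and 64.5 in batch 2. For all 3 genes the groups overlapped, apart from Psme2 in batch 1, which lay above the controls at a log2 fold change of 0.26 ± 0.15 (adjusted p = 0.699).

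Outside the members, 1 listed gene was called for palmitic acid, of the 27 further interferon-stimulated genes tested. None was called among the tested 12 receptor and signalling, 12 sensor, 13 class I and 14 standard proteasome genes. A count of 1 does not set a list apart from the 0.559% and 0.325% of all genes called. Ifitm3, which blocks virus entry at the endosome membrane, ranged from 178 to 215 CPM in controls. Batch 1 libraries had 373 to 440 CPM and those of batch 2 had 393 to 408 CPM, all above the controls. Its log2 fold changes were 1.09 ± 0.15 (edgeR adjusted p = 6.09e-07) and 1.06 ± 0.16 (1.81e-05), and it was at -0.17 ± 0.16 with carmofur (0.667). With library block as a covariate in edgeR, Ifitm3 was called lower with carmofur (-0.45, adjusted p = 0.0146), in 1 of 20 alternatives. The difference of the carmofur and batch 1 effects was -1.25 ± 0.35 and missed the threshold in edgeR (adjusted p = 0.0854). DESeq2 (-1.26, adjusted p = 0.028) and limma-voom with quality weights (-1.35, adjusted p = 0.00242) called it.

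Whether the carmofur effect differed from that of palmitic acid batch 1 was tested for 33 of the 37 members in a fit of all 35 libraries, which called 0.69% of 14052 genes. No member was called, and 2 interferon members had an unadjusted p under 0.05. Xaf1 differed by 0.96 ± 0.28 on the log2 scale (adjusted p = 0.109) and Isg20 by 1.67 ± 0.68 (0.498). DESeq2, limma-voom and scaling by library size each called Xaf1 (0.019, 0.0407 and 0.0492). B2m differed by 0.20 ± 0.39 (adjusted p = 1), with an interval of -0.59 to 1. The biological coefficient of variation was 0.969 in that fit, above the 0.407 and 0.75 of the separate fits, and a missed threshold there does not show that the effects were alike. The difference from batch 2 was not tested.

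Within groups, correlations among the members had medians near 0 and a wide range. Over the 27 carmofur libraries, centred within groups, the median Pearson r was 0.083 over 105 pairs of interferon members, 0.0611 over 28 pairs of antigen presentation members and 0.109 over the 120 pairs between the lists. Single pairs ranged from -0.504 (B2m and Psme1) to 0.636 (Irf9 and Erap1), with Dtx3l and H2-D1 at 0.573 and Parp9 and H2-D1 at 0.552. Of the members called with carmofur, B2m and Xaf1 were at 0.456, Xaf1 and Isg20 at 0.295, and Isg20 and B2m at 0.0477. The gene most like the mean of the interferon members was Vcl (r = 0.802), then AU021092 (0.727) and Klf6 (0.715). These values are descriptions over libraries that share depth and block.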

How the data were processed

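Polyadenylated RNA was extracted with TRIzol and made into directional libraries, per the labels' protocols. The deposited table holds estimated counts per gene as whole numbers, which the authors made with Salmon 1.3.0; the submitters' processing notes name that tool and the build mm10. The annotation and rounding step were not given in the sources used here. Unnamed identifiers (1243, with 0.0216% of the counts) stayed in the fits.

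Groups came from the labels. Tests used edgeR 4.0.16 in R 4.3.3: TMM scaling, the default filter, robust quasi-likelihood F tests, and Benjamini-Hochberg adjustment over all genes tested at 0.05. The 8 palmitic acid libraries, the 27 carmofur libraries and all 35 were fitted separately. Their biological coefficients of variation were 0.407, 0.75 and 0.969. Each SE was computed as the absolute log2 fold change over the square root of its F statistic. Levels in CPM used TMM factors, lengths are exon unions of GENCODE M21, and a count of 0 was bounded at 3 counts, which covers counting error only. The fits were tested on simulated data with changed genes. Of 2-fold changes they found 22% for palmitic acid batch 1, 24% for batch 2, 27% for carmofur and 1% for the difference of the effects.

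All members may be named. Of other lists, genes called in any comparison and up to 4 with the lowest carmofur p were eligible, and Psmb5, Psmb6 and Psmb7 were fixed by name. Some genes eligible under this rule are not reported here. The members and lists were chosen with earlier results of these data known. Alternatives included DESeq2 1.42.0, limma 3.58.1 voom, other scalings and filters, libraries or library sets left out, sets summed, and the replicate number as a block. For carmofur they also included library block as a covariate and library set as a correlated group.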

Additional observations from a re-analysis of the deposited data

Results flagged for a closer look

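The carmofur effect exceeded that of palmitic acid batch 1, each against its own control, for 2 of 19 tested class I genes outside the members. That fit called 0.69% of all genes. H2-T23 differed by 0.97 ± 0.25 on the log2 scale (edgeR adjusted p = 0.0474), a call lost without any single palmitic acid control or batch 1 library (adjusted p 0.067 to 0.319). The call was also lost with scaling by RLE size factors (0.0564) and with no filter (0.0791). Tapbpl differed by 1.302 ± 0.26 (adjusted p = 0.00707) and lost its call without the third batch 1 library (0.0945). The carmofur effect on 3 genes outside the members differed between the 3 blocks of library numbers. Slfn5 (adjusted p = 0.0119) was at 0.14 ± 0.18, 1.39 ± 0.19 and 0.92 ± 0.17 on the log2 scale. Psmb6 (0.0239) was at -0.07 ± 0.09, -0.39 ± 0.09 and 0.22 ± 0.09. Krt20 (0.0365), at 0 counts in 4 of 35 libraries, was at 2.56 ± 0.77, 7.99 ± 1.17 and 2.7 ± 0.64.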

How the results depend on the processing

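No value changed direction where it was called, and Xaf1 stayed called with carmofur in all 20 alternatives run (log2 0.68 to 0.90). DESeq2 called 1374 of 24076 genes for carmofur, with 4 of 23 interferon and 2 of 12 antigen presentation members. It called 54 genes for palmitic acid batch 2, and 209 of 25642 genes with 1 interferon member for the difference of the effects. Limma-voom with quality weights called 4 of 15 interferon members (Irf1 and Oas1a added) and 2 of 8 antigen presentation members (Tapbp added) for carmofur. Its count over all genes for carmofur is not reported here, so these calls have no background beside them. For the difference it called 239 of 14052 genes with 1 interferon member. With no filter, 3541 of 24076 genes, 4 of 23 interferon and 2 of 12 antigen presentation members were called for carmofur. Between the palmitic acid batches 19 genes were called. Library size scaling called 1 interferon member for the difference. With library sets summed, 334 of 12653 genes and 0 of 8 antigen presentation members were called for carmofur. The interferon members called there were Xaf1 (edgeR adjusted p = 0.0388) and Zbp1 (0.047).

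Leaving out libraries or library sets gave 21 to 72 genes for palmitic acid batch 1, 23 to 48 for batch 2, 2 to 14 between batches, 740 to 981 for carmofur with 1 to 2 interferon and 0 to 2 antigen presentation members, and 22 to 50 for the difference of the effects. Jak1 lost its call without library sets 1, 3, 5, 7, 8 or 9 and Ube2l6 without sets 1, 5, 6, 7 or 9. The cause was not tested. Replicate numbers did not pair the libraries (correlations of same-numbered libraries -0.0219 to 0.0492), and with the replicate block 799 genes were called for carmofur, 42 for palmitic acid batch 1 and 28 for batch 2, with the same number of members. Shallow libraries limit the low members: 3 counts were 0.292 to 3.87 CPM.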
